A study of Mus musculus with 15 samples.

Results

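The genes described here encode transporters of the solute carrier families SLC3, SLC6, SLC7, SLC36, SLC38 and SLC43, most of which carry amino acids, in primary astrocytes from mouse brain. They were taken by symbol alone, as every row whose symbol is Slc3a, Slc6a, Slc7a, Slc36a, Slc38a or Slc43a with a number. These families, and the gene lists used further below, were chosen with earlier results of these data known. They are 51 of the 25748 gene rows. Of these, 34 had enough counts to be tested, among 15362 genes tested in all, and 17 did not: Slc7a9, Slc7a10, Slc7a13, Slc7a15, Slc6a3, Slc6a4, Slc6a5, Slc6a7, Slc6a12, Slc6a13, Slc6a14, Slc6a16, Slc6a20a, Slc38a5, Slc38a8, Slc38a11 and Slc36a2.

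Polyadenylated RNA was sequenced in 15 libraries of 3 groups with 5 libraries each. The Rg1 plus LPS cultures were pretreated with 80 µM ginsenoside Rg1, a saponin of ginseng, for 12 h and then given 1 µg/mL lipopolysaccharide (LPS), a bacterial cell wall component, for 6 to 8 h. The LPS cultures, labelled SCI by the submitters, received the same LPS without Rg1, and the control cultures received neither. In the treatment field the 5 libraries of the first group are numbered Rg1, Rg2 and so on to Rg5; they were taken as replicates of ginsenoside Rg1, as the titles and design text have them. No group with Rg1 and without LPS was analysed here, so an effect of Rg1 on cells that did not receive LPS cannot be told apart from one on the LPS response. Nothing in the labels tells apart libraries from separate cultures or animals and repeat libraries of one, and p-values reflect only how much the deposited libraries vary, which may be technical.

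Heavy chains of the SLC3 family bring SLC7 light chains to the plasma membrane, where each light chain decides which amino acids are exchanged. The other SLC7 proteins, the cationic amino acid transporters, carry arginine, lysine and ornithine without a heavy chain. SLC6 proteins use the sodium and chloride gradients to take up GABA, glycine, taurine, creatine, monoamines or neutral amino acids, SLC38 proteins move glutamine and other small neutral amino acids with sodium, and several SLC36 and SLC38 proteins sit on the lysosome. In brain, astrocytes release glutamine to neurons, take up GABA and glycine around synapses, and import cystine for glutathione.

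The labels give no strain, age or number of animals. Libraries held 34199966 to 41764010 counts. Astrocyte markers summed to 6282 to 9860 CPM (counts relative to the TMM-scaled library total) in Rg1 plus LPS libraries. They summed to 5772 to 10012 CPM in LPS libraries and 8894 to 11376 CPM in control libraries. The defining markers of the labelled cell type were thus present. Of the 10 astrocyte markers, 6 were lower in LPS than in control libraries (9.82% of all tested genes were). In Rg1 plus LPS against LPS, 5 were higher (22.2% of all genes) and 1 lower (23.2% of all genes). Against control, 4 were lower in Rg1 plus LPS libraries (18.1% of all genes). Markers of fibroblasts and leptomeningeal cells were also present, at 2162 to 6496 CPM in Rg1 plus LPS libraries, 4681 to 6518 CPM in LPS libraries and 4408 to 5873 CPM in control libraries. Summed markers of the other cell types that such cultures may hold were lower. The 4 pericyte markers summed to only 0.506 to 2.00, 0.536 to 1.23 and 0.517 to 1.55 CPM in Rg1 plus LPS, LPS and control libraries. The 3 choroid plexus markers summed to 3.65 to 4.89, 2.35 to 2.96 and 3.23 to 4.77 CPM in the same order, mostly from Folr1. The 7 endothelial markers summed to 159 to 246 CPM in Rg1 plus LPS, 229 to 277 CPM in LPS and 242 to 286 CPM in control libraries, mostly from Cdh5 and Slco1a4, with Pecam1 and Cldn5 at or near 0. The 9 neuronal markers summed to 373 to 593, 415 to 577 and 460.4 to 493 CPM in Rg1 plus LPS, LPS and control libraries, mostly from Stmn2, with Rbfox3 and Snap25 near 0. The 8 markers of the oligodendrocyte lineage summed to 321 to 401, 332 to 375 and 313 to 387 CPM in Rg1 plus LPS, LPS and control libraries, mostly from Olig1 and Olig2, with Mog near 0. In these bulk samples, fewer cells of a type and less RNA per cell cannot be told apart. Among the Rg1 plus LPS libraries, 1 and 4 stood apart from the other 3 of their group: their fibroblast and leptomeningeal markers summed to 2162 and 3016 CPM, against 4663 to 6496 CPM in libraries 2, 3 and 5. Nos2, the inducible nitric oxide synthase that LPS is known to raise, had 0 or 1 counts in each Rg1 plus LPS library, 1353 to 2364 counts in each LPS library and 0 or 1 counts in each control library. By this gene the libraries labelled as given both Rg1 and LPS were at the level of the control libraries. Results whose call or value turns on Rg1 plus LPS libraries 1 and 4 are given with and without them, an alternative chosen after the data were seen.

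Together the 51 genes took 0.296 ± 0.0413% of all counts in Rg1 plus LPS libraries, 0.341 ± 0.0264% in LPS libraries and 0.312 ± 0.00496% in control libraries (SD, n = 5 each). On the per-length scale (FPKM, counts divided by gene length and library total), the 5 highest in each group were Slc3a2, Slc6a8, Slc38a3, Slc7a11 and Slc7a5, in an order that differed between groups. Slc3a2, the CD98 heavy chain, averaged 82.5 ± 18.7 FPKM in Rg1 plus LPS libraries, 67.6 ± 6.92 FPKM in LPS libraries and 70.4 ± 4.13 FPKM in control libraries. Slc6a8, the creatine transporter, averaged 75.9 ± 17.7, 66.0 ± 4.25 and 70.9 ± 2.95 FPKM in Rg1 plus LPS, LPS and control libraries. Slc38a3, the glutamine transporter SNAT3 that astrocytes use for release, averaged 70.1 ± 13.2 FPKM in Rg1 plus LPS libraries, 53.8 ± 9.56 FPKM in LPS libraries and 73.8 ± 4.35 FPKM in control libraries. Within each group the ranges of these 3 genes overlapped. In the order by FPKM, Slc7a2 stood 11th with 9.01 ± 1.55 FPKM in Rg1 plus LPS libraries, 7th with 40.5 ± 3.49 FPKM in LPS libraries and 10th with 11.8 ± 1.21 FPKM in control libraries.

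**Figure D1:**
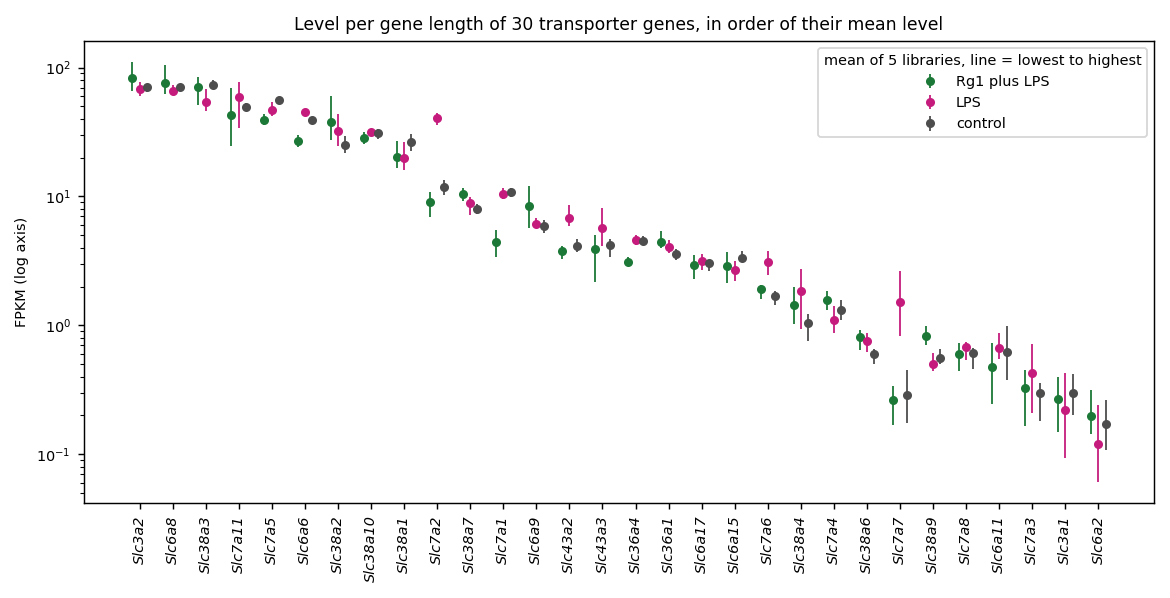
Mean FPKM (log axis) of 30 transporter genes in order of their mean level, in Rg1 plus LPS, LPS and control libraries; points are means of 5 libraries and lines run from the lowest to the highest library. Slc7a2 in LPS libraries (40.5 FPKM) lies well above its 9.01 FPKM in Rg1 plus LPS and 11.8 FPKM in control libraries, and Slc7a7 in LPS libraries stands out in the same way at a low level.

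LPS changed 10 of the 34 tested genes against control (29.4%, where 23.7% of all tested genes changed): 7 were higher (13.8% of all genes were) and 3 lower (9.82% of all genes were). Rg1 plus LPS against LPS changed 13 of 34 (38.2%, against 45.4% of all genes), of which 3 were higher (22.2% of all genes) and 10 lower (23.2% of all genes). Rg1 plus LPS against control changed 14 of 34 (41.2%, against 36.9% of all genes), with 7 higher (18.8% of all genes) and 7 lower (18.1% of all genes). These counts use adjusted p under 0.05 in edgeR's quasi-likelihood test, adjusted by Benjamini-Hochberg over all genes tested. The median log2 fold change of the 34 was 0.08 with LPS, and in Rg1 plus LPS libraries -0.16 against LPS and -0.15 against control, where the medians over all tested genes were -0.003, 0.03 and 0.01. The groups did not overlap for 6, 9 and 8 of the 34 genes in the 3 comparisons, in the same order, against 20.4%, 27.5% and 26.2% of all genes. Each pair of comparisons shares 5 libraries, so their values are given side by side without any measure of how they go together.

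**Figure D2:**
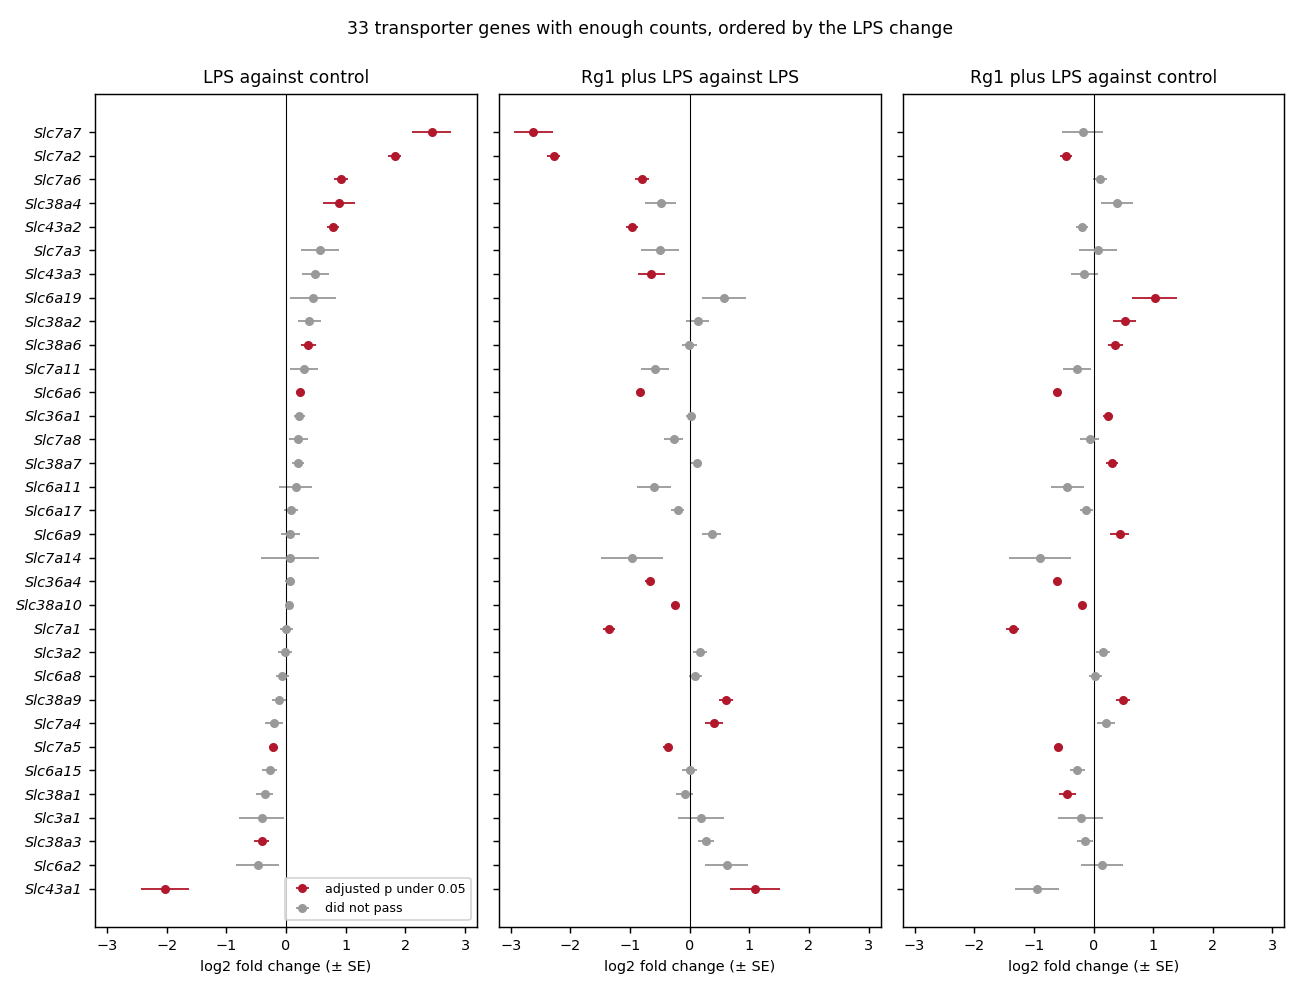
Log2 fold change with its SE for 33 of the transporter genes with enough counts; the panels are LPS against control, then Rg1 plus LPS against LPS, then Rg1 plus LPS against control; red points passed an adjusted p of 0.05 and grey points did not. Slc7a7, Slc7a2, Slc7a6 and Slc43a2 lie right of 0 in the first panel and left of 0 in the second, while Slc7a1 is near 0 in the first and lies at -1.36 and -1.35 in the other panels.

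The 2 heavy chains did not pass in any comparison. Slc3a2 had 989, 589, 642, 824 and 651 CPM in the Rg1 plus LPS libraries, 607, 664, 681, 734 and 583 in the LPS libraries, and 642, 604, 653, 695 and 713 in the control libraries, listed from replicate 1 to replicate 5. Rg1 plus LPS libraries 1 and 4 were the highest of all 15, and the other 3 of that group lay within the range of the LPS and control libraries. The log2 fold change of Slc3a2 was 0.18 ± 0.12 (SE, adjusted p = 0.24) in Rg1 plus LPS against LPS, 0.16 ± 0.12 (SE, adjusted p = 0.307) in Rg1 plus LPS against control and -0.02 ± 0.12 (SE, adjusted p = 0.933) in LPS against control. With the gene length trend of each library removed, it passed at 0.40 against LPS (adjusted p = 0.0147) and 0.34 against control (adjusted p = 0.0426). Without Rg1 plus LPS libraries 1 and 4 the values were -0.05 and -0.07. Slc3a1, the heavy chain of the kidney cystine transporter, averaged 0.596 ± 0.246, 0.522 ± 0.293 and 0.690 ± 0.190 CPM in Rg1 plus LPS, LPS and control libraries (SD, n = 5 each). Of its exon bases, 26.5% lie opposite exons of Prepl, and since the strand setting of the counting is not given in the sources used here, reads of both genes cannot be told apart.

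Among the light chains, Slc7a5, Slc7a6, Slc7a7, Slc7a8 and Slc7a11 were tested; 2 rose and 1 fell with LPS, and 3 were lower in Rg1 plus LPS than in LPS libraries. Slc7a7 and Slc7a6 encode y+LAT1 and y+LAT2, which exchange cationic amino acids for neutral amino acids and sodium. In the GENCODE annotation of GRCm38, Slc7a6 lies on chromosome 8 at 106168857 to 106198706, and Slc7a7 on chromosome 14 at 54369442 to 54417780. Slc7a6 had 24.8, 25.2, 19.3, 24.0 and 24.2 CPM in the Rg1 plus LPS libraries, 49.3, 34.4, 33.0, 38.3 and 50.6 in the LPS libraries, and 22.9, 21.8, 23.7, 18.7 and 21.6 in the control libraries. Every LPS library was above every library of both other groups, which overlapped each other. Slc7a6 rose by 0.92 ± 0.12 (SE, adjusted p = 2.46e-05) on the log2 scale with LPS, and its log2 fold change was -0.81 ± 0.12 in Rg1 plus LPS against LPS (adjusted p = 4.5e-05). Against control, Rg1 plus LPS libraries had a log2 fold change of 0.11 ± 0.12 (SE, adjusted p = 0.489).

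Slc7a7 had the largest absolute log2 fold change of the 34 genes with LPS and also in Rg1 plus LPS against LPS, at a low level. It had 0.725, 0.546, 0.915, 0.985 and 1.12 CPM in the Rg1 plus LPS libraries, 3.76, 5.97, 9.31, 2.82 and 4.66 in the LPS libraries, and 0.594, 0.921, 1.15, 0.673 and 1.54 in the control libraries. All LPS libraries lay above all others, with library 3 the highest, and the ranges of the other groups overlapped. Slc7a7 rose by 2.44 ± 0.33 (SE, adjusted p = 3.56e-05) on the log2 scale with LPS. For Slc7a7 the log2 fold change was -2.62 ± 0.33 (SE, adjusted p = 8.69e-06) in Rg1 plus LPS against LPS and -0.18 ± 0.34 (SE, adjusted p = 0.706) against control. Slc7a7 is abundant in macrophages, and the 15 microglia and macrophage markers summed to 118 to 146 CPM in Rg1 plus LPS libraries, 134 to 215 CPM in LPS libraries and 131 to 229 CPM in control libraries. In edgeR 0 of the 15 markers passed in LPS against control, with 1 at an unadjusted p under 0.05 and 1 past the adjusted threshold by DESeq2 and by limma. In edgeR 8 of the 15 were lower in Rg1 plus LPS against LPS (23.2% of all genes were). Against control, 5 of the 15 were lower in Rg1 plus LPS libraries (18.1% of all genes). The defining markers Cx3cr1 and P2ry12 averaged at most 0.90 CPM in each group. LPS libraries 2 and 3 had the highest marker sums of their group, 176 and 215 CPM. Without both of them the log2 fold change of Slc7a7 was 1.94 with LPS (adjusted p = 0.000305) and -2.13 in Rg1 plus LPS against LPS (adjusted p = 6.84e-05). Control library 4 had the highest sum of all, 229 CPM, beside 0.673 CPM of Slc7a7. The 7% of Slc7a7 exon bases that lie opposite exons of Oxa1l are subject to the same limit of strand.

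**Figure D3:**
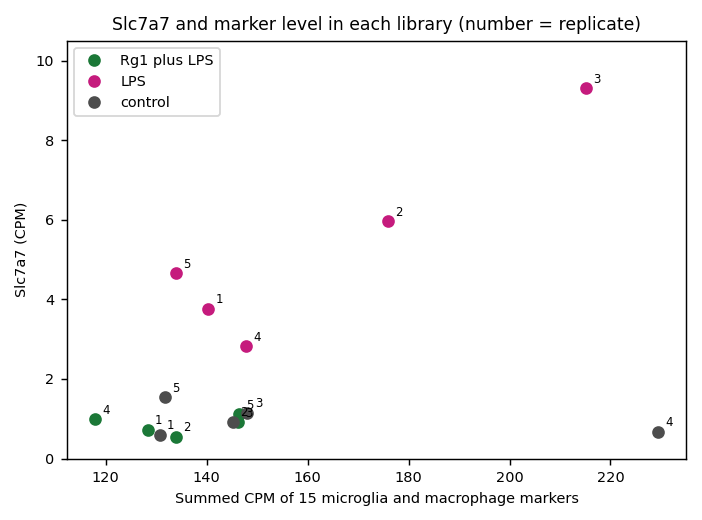
CPM of Slc7a7 against the summed CPM of 15 microglia and macrophage markers in each library; numbers are replicates. The 5 LPS libraries lie between 2.82 and 9.31 CPM of Slc7a7, above the 10 others at every marker level, including control library 4 with the highest marker sum.

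Slc7a5 encodes LAT1, the exchanger of leucine and other large neutral amino acids that works with CD98. It had 132, 129.7, 119, 126 and 151 CPM in the Rg1 plus LPS libraries, 161, 153, 168, 168 and 199.7 in the LPS libraries, and 209, 197, 193, 199.6 and 192 in the control libraries. The 3 groups stood in steps, with every Rg1 plus LPS library below every LPS library, and LPS library 5 as the one LPS library that reached into the range of the control libraries. Slc7a5 was lower in Rg1 plus LPS than in LPS libraries, with a log2 fold change of -0.37 ± 0.07 (SE, adjusted p = 0.000594), and lower than in control libraries, at -0.59 ± 0.07 (SE, adjusted p = 1.44e-05). It fell by 0.22 ± 0.07 (SE, adjusted p = 0.0355) with LPS, a call that ended, at adjusted p between 0.0518 and 0.0921, without LPS library 1, 2 or 4 or without control library 1, 2, 3 or 4. Slc7a8, which encodes the related LAT2, averaged 4.51 ± 0.938, 5.44 ± 0.792 and 4.72 ± 0.663 CPM in Rg1 plus LPS, LPS and control libraries and did not pass in any comparison.

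Slc7a11 encodes xCT, which imports cystine for glutathione in exchange for glutamate and is a well-known target of ATF4 and NRF2. It had 616, 299, 318, 464 and 225 CPM in the Rg1 plus LPS libraries, 527, 655, 624, 736 and 336 in the LPS libraries, and 451, 449.6, 451, 468 and 511 in the control libraries. The control libraries lay close together, while both treated groups ranged widely and overlapped each other and the control libraries. Its log2 fold change was 0.30 ± 0.23 (SE, adjusted p = 0.372) with LPS, -0.58 ± 0.24 (SE, adjusted p = 0.0549) in Rg1 plus LPS against LPS and -0.28 ± 0.23 (SE, adjusted p = 0.378) in Rg1 plus LPS against control. Rg1 plus LPS libraries 1 and 4 were the highest of their group, and without them the log2 fold change was -1.03 against LPS (adjusted p = 0.000962) and -0.73 against control (adjusted p = 0.0121). Leaving out Rg1 plus LPS library 1 alone gave -0.82 against LPS (adjusted p = 0.00462), and leaving out LPS library 5 gave -0.72 (adjusted p = 0.0173). With all libraries, DESeq2 gave -0.59 (adjusted p = 0.0295) and limma -0.63 (adjusted p = 0.0354) against LPS.

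Atf4 and Gclm, chosen after their values were seen, were also high in Rg1 plus LPS libraries 1 and 4. Atf4, the transcription factor of the amino acid response, had 376, 199, 187, 295 and 201 CPM in the Rg1 plus LPS libraries, 225, 221, 202, 259 and 223 in the LPS libraries, and 179, 162, 164, 202 and 188 in the control libraries. Gclm, a subunit of the enzyme that limits glutathione synthesis, had 622, 186, 208, 498 and 195 CPM in the Rg1 plus LPS libraries, 279.8, 262, 219, 398 and 217 in the LPS libraries, and 275, 213, 239, 238 and 366 in the control libraries. In both genes Rg1 plus LPS libraries 1 and 4 stood above the other 3 of their group, and for Gclm those 3 lay below every LPS and every control library. The mean log2(CPM + 1) of 17 glutathione and NRF2 genes was 7.54 and 7.38 in Rg1 plus LPS libraries 1 and 4 and 6.80 to 6.89 in libraries 2, 3 and 5, against 7.01 to 7.41 in LPS libraries and 7.10 to 7.37 in control libraries. The 25 genes of the ATF4 list did not set the pair apart as a whole: their mean log2(CPM + 1) was 5.09 and 4.99 in libraries 1 and 4, and 4.93 to 5.05 in libraries 2, 3 and 5, against 5.10 to 5.33 in LPS libraries and 5.11 to 5.27 in control libraries. The part of the difference in single genes and in the NRF2 list was not tested beyond leaving the pair out.

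**Figure D4:**
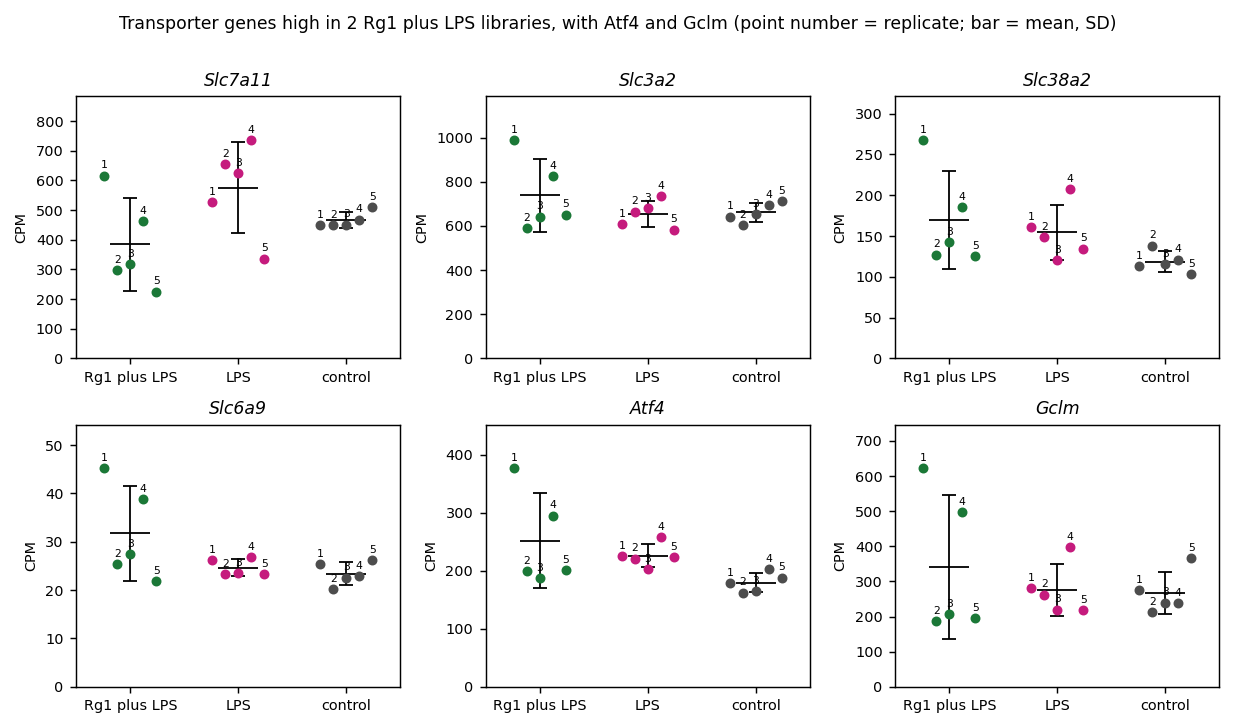
CPM of 4 transporter genes (Slc7a11, Slc3a2, Slc38a2 and Slc6a9) and of Atf4 and Gclm in each library of Rg1 plus LPS, LPS and control; numbers are replicates, the long bar is the mean and the whiskers the SD over 5 libraries. Rg1 plus LPS libraries 1 and 4 are the 2 highest of their group in all 6 panels.

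Promoter windows of 300 bases, 250 before and 50 after a transcription start, were read from the RefSeq table for GRCm38.p6, in which 22 of the 34 tested genes had 34 windows. They were searched on both strands for the amino acid response element TGATGNAA (the site of ATF4 with C/EBP factors), for the antioxidant response element TGACNNNGC (NRF2) and for the NF-kB consensus. TGATGNAA was found in 3.97% of 32851 windows of all genes and in 3 of the 34 transporter windows, all of Slc7a11 or Slc7a7. TGACNNNGC was in 12.4% of all windows and in 9 of the 34, of 7 genes, and the NF-kB consensus in 4.51% and in 4 of the 34, of Slc43a2, Slc7a7 and Slc36a4. Windows of the same gene can overlap, so these window counts hold repeats of the same site. Such repeats are a TGATGNAA and the NF-kB match of Slc7a7 and the TGACNNNGC of Slc7a6. A window is given of Slc7a11, which varied widely between treated libraries. Windows of Slc7a7 and Slc43a2 are given too. Both genes were higher in LPS than in either other group and held an NF-kB match. Slc7a6 was also higher in LPS than in either other group, and its windows held no match to TGATGNAA or the NF-kB consensus. Slc7a2 and Slc6a6, also higher in LPS than in either other group, had no window. Where a gene had several windows, the window shown was picked for the most kinds of match. Each is written 5′ to 3′ along the gene, with the matches in capitals.
Slc7a11, chr3:50443564-50443863, minus strand: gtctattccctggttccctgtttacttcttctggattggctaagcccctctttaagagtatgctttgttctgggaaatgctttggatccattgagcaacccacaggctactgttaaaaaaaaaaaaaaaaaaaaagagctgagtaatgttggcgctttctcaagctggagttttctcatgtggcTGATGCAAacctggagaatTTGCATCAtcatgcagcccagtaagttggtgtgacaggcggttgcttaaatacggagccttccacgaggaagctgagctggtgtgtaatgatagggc
Slc7a7, chr14:54417653-54417952, minus strand: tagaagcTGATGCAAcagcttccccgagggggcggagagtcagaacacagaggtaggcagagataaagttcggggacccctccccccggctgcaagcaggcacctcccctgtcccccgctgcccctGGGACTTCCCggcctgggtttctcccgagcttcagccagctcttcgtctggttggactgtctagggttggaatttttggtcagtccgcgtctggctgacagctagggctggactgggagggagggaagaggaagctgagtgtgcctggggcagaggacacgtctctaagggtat
Slc43a2, chr11:75531444-75531743, plus strand: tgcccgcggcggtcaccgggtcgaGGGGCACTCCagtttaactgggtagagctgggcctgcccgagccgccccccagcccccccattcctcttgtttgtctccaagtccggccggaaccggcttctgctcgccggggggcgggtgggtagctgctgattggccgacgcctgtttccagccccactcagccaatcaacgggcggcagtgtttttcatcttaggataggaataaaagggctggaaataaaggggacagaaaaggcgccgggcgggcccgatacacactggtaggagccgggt
In Slc7a11 the capitals are the amino acid response element in both orientations, from -66 to -59 and from -47 to -40 relative to the start. In Slc7a7 they are the amino acid response element at -243 to -236 and the NF-kB consensus at -124 to -115. In Slc43a2 they are the NF-kB consensus at -226 to -217. These are matches of letters only. Further windows of Slc7a7, starting at 54409423 and 54410154, and of Slc43a2, starting at 75531862, held no match. Slc36a4, which also had a match to the NF-kB consensus, had a log2 fold change of 0.06 ± 0.07 with LPS and did not pass.

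The cationic amino acid transporters held the largest differences among the abundant members. Slc7a2, on chromosome 8 at 40862396 to 40922308, encodes CAT2, the arginine carrier that is induced in activated macrophages alongside the inducible nitric oxide synthase. It had 70.5, 89.5, 92.1, 61.0 and 78.9 CPM in the Rg1 plus LPS libraries, 389.9, 418, 408, 349.8 and 340.4 in the LPS libraries, and 105, 123, 110.0, 107 and 94.4 in the control libraries. Every LPS library was above every library of the other groups, and every Rg1 plus LPS library was below every control library. Slc7a2 rose by 1.82 ± 0.11 (SE, adjusted p = 1.45e-09) on the log2 scale with LPS. Its difference in Rg1 plus LPS was -2.28 ± 0.11 (SE, adjusted p = 7.2e-11) against LPS and -0.46 ± 0.10 (SE, adjusted p = 0.00248) in Rg1 plus LPS against control. The last of these was -0.31 (adjusted p = 0.0167) without Rg1 plus LPS libraries 1 and 4. Of the Slc7a2 exon bases, 6.95% lie opposite exons of Gm26584, with the same limit of strand.

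Slc7a1 encodes CAT1, the constitutive arginine and lysine carrier of most cells, and lies on chromosome 5 at 148327410 to 148399904. It had 38.6, 30.3, 23.5, 30.4 and 33.5 CPM in the Rg1 plus LPS libraries, 76.3, 73.3, 88.4, 71.6 and 90.1 in the LPS libraries, and 86.2, 79.5, 72.3, 82.3 and 78.6 in the control libraries. The LPS and control libraries shared one range, and every Rg1 plus LPS library lay below it. Slc7a1 was lower in Rg1 plus LPS than in LPS libraries, with a log2 fold change of -1.36 ± 0.11 (SE, adjusted p = 3.96e-08), and lower than in control libraries, at -1.35 ± 0.11 (SE, adjusted p = 1.39e-07). Its log2 fold change with LPS was 0.00 ± 0.10 (SE, adjusted p = 0.985). Slc7a1 and Slc7a2 were thus both lower in Rg1 plus LPS than in control libraries.

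The other 3 cationic members were low. Slc7a4, for which no transport activity is established, averaged 5.47 ± 0.813 CPM in Rg1 plus LPS libraries, 4.12 ± 0.802 CPM in LPS libraries and 4.75 ± 0.622 CPM in control libraries. In Rg1 plus LPS against LPS the log2 fold change of Slc7a4 was 0.41 ± 0.15 (SE, adjusted p = 0.0322), a call that ended, at adjusted p between 0.0508 and 0.0869, without any 1 of Rg1 plus LPS library 3 or 5 or LPS library 1, 2, 4 or 5. Of its exon bases, 13.3% lie opposite exons of P2rx6. Slc7a3, the carrier CAT3, averaged 1.72 ± 0.601, 2.43 ± 1.13 and 1.63 ± 0.373 CPM, and Slc7a14, a lysosomal member, 0.143 ± 0.127, 0.280 ± 0.122 and 0.271 ± 0.110 CPM in Rg1 plus LPS, LPS and control libraries, and neither passed. Without Rg1 plus LPS library 3, Slc7a14 passed in both comparisons of that group, at -1.56 against LPS (adjusted p = 0.0243) and -1.50 against control (adjusted p = 0.034).

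**Figure D5:**
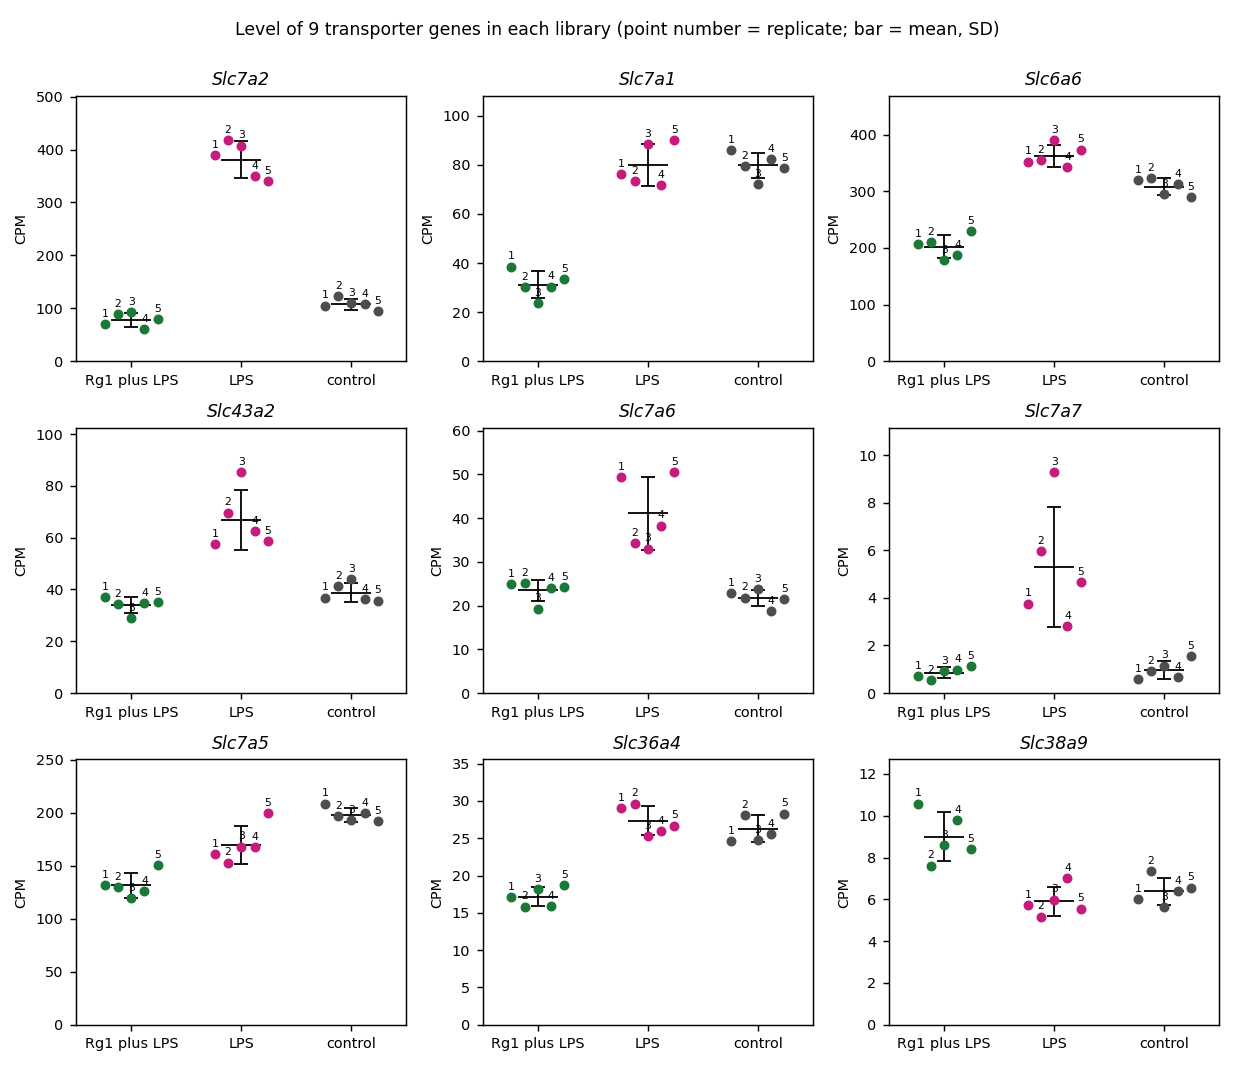
CPM of 9 transporter genes in each library of Rg1 plus LPS, LPS and control; numbers are replicates, the long bar is the mean and the whiskers the SD over 5 libraries. Slc7a2, Slc43a2, Slc7a6 and Slc7a7 are highest in the LPS libraries, Slc7a1 and Slc36a4 are lowest in the Rg1 plus LPS libraries with the other groups alike in range, and Slc38a9 is highest in the Rg1 plus LPS libraries.

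In the SLC6 family the taurine transporter changed, and the creatine transporter and the GABA transporter typical of astrocytes did not pass. Slc6a6, which brings the osmolyte taurine into cells and lies on chromosome 6 at 91684053 to 91759066, had 207, 210.0, 179, 187 and 229.8 CPM in the Rg1 plus LPS libraries, 352, 355, 390.4, 342 and 373 in the LPS libraries, and 320.0, 323, 296, 312 and 290.2 in the control libraries. The 3 groups did not overlap, with the LPS libraries highest and the Rg1 plus LPS libraries lowest. Slc6a6 was lower in Rg1 plus LPS than in LPS libraries, with a log2 fold change of -0.84 ± 0.07 (SE, adjusted p = 4.71e-08), and than in control libraries, at -0.61 ± 0.07 (SE, adjusted p = 4.99e-06). It rose by 0.23 ± 0.07 (SE, adjusted p = 0.0177) with LPS, a call that ended without control library 5 (0.20, adjusted p = 0.0532) and with the gene length trend removed (0.19, adjusted p = 0.0579).

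Slc6a11 encodes GAT3, the GABA transporter typical of astrocytes. It had 0.942, 2.83, 2.13, 1.76 and 1.64 CPM in the Rg1 plus LPS libraries, 2.39, 3.66, 3.35, 2.34 and 2.33 in the LPS libraries, and 1.55, 2.57, 2.08, 4.07 and 2.33 in the control libraries. Rg1 plus LPS library 1 was the lowest and control library 4 the highest, and all groups overlapped. The log2 fold change of Slc6a11 was -0.60 ± 0.28 (SE, adjusted p = 0.0938) in Rg1 plus LPS against LPS, and -0.78 (adjusted p = 0.0366) without Rg1 plus LPS library 2. Slc6a8, the creatine transporter, averaged 290.0 ± 66.9 CPM in Rg1 plus LPS libraries, 272 ± 14.4 CPM in LPS libraries and 284 ± 13.4 CPM in control libraries. Of Slc6a8, Rg1 plus LPS libraries 1 and 4 held 394 and 318 CPM, against 238 to 259.9 CPM in libraries 2, 3 and 5. Without the pair its log2 fold change against control was -0.21 (adjusted p = 0.0147), where it was 0.03 ± 0.11 with all libraries.

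Slc6a9 encodes GLYT1, the glial glycine transporter. It had 45.2, 25.4, 27.4, 38.8 and 21.9 CPM in the Rg1 plus LPS libraries, 26.2, 23.3, 23.5, 26.8 and 23.3 in the LPS libraries, and 25.3, 20.2, 22.6, 22.9 and 26.1 in the control libraries. Rg1 plus LPS libraries 1 and 4 were the highest of all, and the other 3 held 21.9 to 27.4 CPM, against 20.2 to 26.8 CPM in the LPS and control libraries. The log2 fold change was 0.44 ± 0.16 (SE, adjusted p = 0.0381) in Rg1 plus LPS against control, and 0.09 (adjusted p = 0.483) without libraries 1 and 4. The call also ended without Rg1 plus LPS library 1 or 4 or control library 2, 3 or 4 (adjusted p between 0.0663 and 0.106). Against LPS it was 0.37 ± 0.16 (SE, adjusted p = 0.067), which passed without Rg1 plus LPS library 2, 3 or 5 (adjusted p between 0.0100 and 0.0488) and was 0.21 (adjusted p = 0.207) without library 1, 0.30 (adjusted p = 0.146) without library 4 and 0.03 (adjusted p = 0.838) without both. Of the Slc6a9 exon bases, 27.8% lie opposite exons of Ccdc24.

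Among the neutral amino acid and monoamine transporters of SLC6, Slc6a15, Slc6a17, Slc6a19 and Slc6a2 were tested. Slc6a15, a neutral amino acid transporter of brain, averaged 11.7 ± 2.22, 11.7 ± 1.66 and 14.2 ± 0.994 CPM in Rg1 plus LPS, LPS and control libraries, and Slc6a17, a vesicular neutral amino acid transporter of neurons, 18.5 ± 3.08, 21.3 ± 2.33 and 20.1 ± 1.75 CPM. Neither passed with all libraries. Slc6a15 passed in Rg1 plus LPS against control without Rg1 plus LPS library 3 (-0.36, adjusted p = 0.0334), and Slc6a17 in Rg1 plus LPS against LPS without Rg1 plus LPS library 1 (-0.28, adjusted p = 0.0452). Slc6a19, the neutral amino acid transporter of gut and kidney, was near the limit of detection, at 0.425 ± 0.101, 0.288 ± 0.152 and 0.207 ± 0.0752 CPM, with 86, 51 and 38 counts over the 5 libraries of each group. Its log2 fold change in Rg1 plus LPS against control was 1.02 ± 0.38 (SE, adjusted p = 0.0419), and it did not pass without 1 of 6 single libraries (Rg1 plus LPS 1, 2 or 5, control 2, 3 or 4; adjusted p between 0.05005 and 0.105) or without Rg1 plus LPS libraries 1 and 4 together (1.08, adjusted p = 0.0729). Slc6a2, the noradrenaline transporter, averaged 1.21 ± 0.392, 0.791 ± 0.486 and 1.10 ± 0.383 CPM and did not pass. Without LPS library 3, Slc6a2 passed in LPS against control (-0.90, adjusted p = 0.0499) and in Rg1 plus LPS against LPS (1.04, adjusted p = 0.0159).

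In the SLC38 family, 8 of 11 genes were tested, and their changes were of both signs. With LPS, Slc38a4 and Slc38a6 were higher and Slc38a3 was lower. In Rg1 plus LPS against LPS, Slc38a9 was higher and Slc38a10 lower, and against control Slc38a2, Slc38a6, Slc38a7 and Slc38a9 were higher and Slc38a1 and Slc38a10 lower. Slc38a3, the glutamine transporter of astrocytes, had 161, 221, 261, 201 and 258 CPM in the Rg1 plus LPS libraries, 157, 198, 235, 154 and 169.5 in the LPS libraries, and 226, 243, 239, 265 and 243 in the control libraries. Of the LPS libraries, 4 were below every control library and library 3 was within their range, and the Rg1 plus LPS libraries overlapped both. Slc38a3 fell by 0.41 ± 0.13 (SE, adjusted p = 0.0306) with LPS, a call that ended, at adjusted p between 0.0531 and 0.0825, without LPS library 1, 4 or 5 or control library 2, 3 or 4. In Rg1 plus LPS against LPS the log2 fold change of Slc38a3 was 0.27 ± 0.13 (SE, adjusted p = 0.101), and 0.39 (adjusted p = 0.0146) without LPS library 3 and 0.36 (adjusted p = 0.0151) without Rg1 plus LPS library 1. Without Rg1 plus LPS libraries 1 and 4 together it was 0.44 (adjusted p = 0.00731). The summed astrocyte markers moved in the same samples: 10012 CPM in LPS library 3, which was the highest of that group for both, against 5772 to 7680 CPM in the other LPS libraries. Their part in the Slc38a3 difference was not tested.

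Slc38a1 and Slc38a2 encode the glutamine uptake carriers SNAT1 and SNAT2, and Slc38a2 is known to be induced by amino acid shortage through ATF4. Slc38a1 had 156, 183, 224, 142 and 161 CPM in the Rg1 plus LPS libraries, 162, 189, 247, 170.2 and 149.8 in the LPS libraries, and 208, 264, 225, 270.0 and 206 in the control libraries. All groups overlapped, and the 5 control libraries were above 8 of the 10 treated libraries. Its log2 fold change was -0.35 ± 0.14 (SE, adjusted p = 0.0813) with LPS, and passed at -0.50 (adjusted p = 0.00897) without LPS library 3. In Rg1 plus LPS against control it was -0.44 ± 0.14 (SE, adjusted p = 0.0236), a call that ended without Rg1 plus LPS library 1, 4 or 5 or control library 2 or 4 (adjusted p between 0.0505 and 0.0700) or without Rg1 plus LPS libraries 1 and 4 together (-0.31, adjusted p = 0.16). Slc38a2 had 268, 127, 143, 185 and 125 CPM in the Rg1 plus LPS libraries, 161, 149, 121, 208 and 135 in the LPS libraries, and 113, 138, 115, 121 and 103 in the control libraries. Rg1 plus LPS library 1 was the highest of all and LPS library 4 the next, and all groups overlapped. The log2 fold change was 0.52 ± 0.19 (SE, adjusted p = 0.045) in Rg1 plus LPS against control, 0.30 (adjusted p = 0.13) without Rg1 plus LPS library 1, and 0.16 (adjusted p = 0.409) without libraries 1 and 4. The call also ended without Rg1 plus LPS library 4 or control library 1, 3, 4 or 5 (adjusted p between 0.0685 and 0.102). With LPS it was 0.39 ± 0.19 (SE, adjusted p = 0.161).

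Slc38a9 encodes the lysosomal carrier that senses arginine for the growth kinase mTORC1. It had 10.6, 7.62, 8.60, 9.79 and 8.41 CPM in the Rg1 plus LPS libraries, 5.73, 5.18, 5.99, 7.03 and 5.56 in the LPS libraries, and 6.02, 7.34, 5.64, 6.38 and 6.56 in the control libraries. Every Rg1 plus LPS library was above every LPS and every control library, and those groups overlapped each other. Slc38a9 was higher in Rg1 plus LPS than in LPS libraries by 0.61 ± 0.12 (SE, adjusted p = 0.000415) and than in control libraries by 0.49 ± 0.11 (SE, adjusted p = 0.00307). With LPS the log2 fold change was -0.12 ± 0.12 (SE, adjusted p = 0.501). Without Rg1 plus LPS libraries 1 and 4 the differences were 0.49 (adjusted p = 0.00384) and 0.36 (adjusted p = 0.0278), and with the gene length trend removed 0.84 and 0.69.

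Slc38a4, a carrier best known from liver and placenta, had 4.86, 8.39, 4.67, 4.36 and 7.87 CPM in the Rg1 plus LPS libraries, 10.8, 6.34, 4.33, 8.27 and 12.5 in the LPS libraries, and 5.42, 5.28, 5.05, 3.31 and 3.78 in the control libraries. LPS libraries 1 and 5 were the highest, LPS library 3 lay among the control libraries, and all groups overlapped. Slc38a4 rose by 0.89 ± 0.27 (SE, adjusted p = 0.0248) with LPS, a call that ended without LPS library 1 or 5 or control library 4 or 5 (adjusted p between 0.0590 and 0.0785). Without LPS library 3 it was also lower in Rg1 plus LPS against LPS (-0.65, adjusted p = 0.0332), where its log2 fold change with all libraries was -0.49 ± 0.27. Slc38a6, of which the transported substrates are less well known, averaged 7.01 ± 0.924, 7.03 ± 1.01 and 5.45 ± 0.545 CPM in Rg1 plus LPS, LPS and control libraries. It rose by 0.37 ± 0.13 (SE, adjusted p = 0.0431) with LPS and by 0.36 ± 0.13 (SE, adjusted p = 0.0317) in Rg1 plus LPS against control. The first call ended without any 1 of 8 libraries (LPS 1, 3 or 5 or any control library; adjusted p between 0.0570 and 0.1165). It also ended with library size scaling only, without the low-count filter, in limma and with the gene length trend removed (adjusted p between 0.0530 and 0.0907). The second ended without any 1 of 5 (Rg1 plus LPS 3, 4 or 5, control 1 or 5; adjusted p between 0.0526 and 0.0823). Slc38a7, a lysosomal glutamine carrier, averaged 35.5 ± 4.03, 32.8 ± 3.94 and 28.6 ± 2.41 CPM. For Slc38a7 the log2 fold change in Rg1 plus LPS against control was 0.31 ± 0.09 (SE, adjusted p = 0.0169), with no overlap between these groups, and 0.20 (adjusted p = 0.113) without Rg1 plus LPS libraries 1 and 4. Slc38a10, with 5.72% of its exon bases opposite exons of Gm11769, averaged 150.3 ± 14.2, 179 ± 7.42 and 172 ± 11.7 CPM. It was lower in Rg1 plus LPS libraries, with a log2 fold change of -0.25 ± 0.07 (SE, adjusted p = 0.00621) against LPS, which did not pass with the gene length trend removed (-0.14, adjusted p = 0.108) or with library size scaling only (-0.14, adjusted p = 0.0801). The value against control was -0.20 ± 0.07 (SE, adjusted p = 0.0294), a call that ended without any 1 of Rg1 plus LPS library 3 or 4 or control library 1, 2 or 3 (adjusted p between 0.0513 and 0.07685) or without Rg1 plus LPS libraries 1 and 4 together (-0.18, adjusted p = 0.0740).

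In the SLC36 family of proton-coupled carriers, the plasma and lysosomal membrane members Slc36a1 and Slc36a4 were tested. Slc36a4 had 17.1, 15.8, 18.2, 15.9 and 18.7 CPM in the Rg1 plus LPS libraries, 29.1, 29.6, 25.3, 26.0 and 26.7 in the LPS libraries, and 24.6, 28.1, 24.7, 25.6 and 28.3 in the control libraries. The LPS and control libraries shared one range and every Rg1 plus LPS library was below it. Its log2 fold change was -0.67 ± 0.07 (SE, adjusted p = 1.62e-06) in Rg1 plus LPS against LPS, -0.61 ± 0.07 (SE, adjusted p = 9.79e-06) in Rg1 plus LPS against control and 0.06 ± 0.07 (SE, adjusted p = 0.591) with LPS. Slc36a1, a lysosomal exporter of small amino acids, had 27.0, 20.003, 20.9, 21.4 and 23.0 CPM in the Rg1 plus LPS libraries, 21.1, 23.1, 20.1, 24.3 and 22.2 in the LPS libraries, and 20.3, 16.8, 20.5, 17.9 and 19.6 in the control libraries. Rg1 plus LPS library 1 was the highest, and all groups overlapped. The log2 fold change of Slc36a1 in Rg1 plus LPS against control was 0.24 ± 0.09 (SE, adjusted p = 0.0433), a call that ended without Rg1 plus LPS library 1 or 5 or control library 2, 4 or 5 (adjusted p between 0.0568 and 0.116). It was 0.16 (adjusted p = 0.149) without Rg1 plus LPS libraries 1 and 4 and 0.23 (adjusted p = 0.0561) in DESeq2.

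The SLC43 family moved with LPS in both directions. Slc43a2 encodes LAT4, a carrier of branched-chain amino acids and phenylalanine that needs no heavy chain, and lies on chromosome 11 at 75531694 to 75577575. It had 37.1, 34.3, 28.9, 34.6 and 35.1 CPM in the Rg1 plus LPS libraries, 57.4, 69.7, 85.4, 62.4 and 58.5 in the LPS libraries, and 36.9, 41.2, 43.9, 36.3 and 35.7 in the control libraries. Every LPS library was above every library of both other groups, which overlapped each other. Slc43a2 rose by 0.78 ± 0.10 (SE, adjusted p = 3.02e-05) on the log2 scale with LPS. For Slc43a2 the log2 fold change was -0.97 ± 0.10 (SE, adjusted p = 1.47e-06) in Rg1 plus LPS against LPS and -0.19 ± 0.10 (SE, adjusted p = 0.164) in Rg1 plus LPS against control. Of its exon bases, 9.18% lie opposite exons of the antisense gene Gm45606.

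Slc43a3, a carrier of purine nucleobases rather than amino acids, had 7.03, 16.1, 14.4, 9.15 and 16.5 CPM in the Rg1 plus LPS libraries, 15.8, 20.7, 28.6, 14.0 and 19.9 in the LPS libraries, and 12.5, 15.3, 15.5, 15.5 and 11.6 in the control libraries. Rg1 plus LPS libraries 1 and 4 were the lowest of all, LPS library 3 was the highest, and all groups overlapped. In Rg1 plus LPS against LPS the log2 fold change of Slc43a3 was -0.65 ± 0.23 (SE, adjusted p = 0.0298), which became -0.33 (adjusted p = 0.164) without Rg1 plus LPS libraries 1 and 4. The call ended without any 1 of Rg1 plus LPS library 1 or 4 or LPS library 2 or 3 (adjusted p between 0.0543 and 0.0843). The 2 low libraries are those with the lowest fibroblast and leptomeningeal markers, and the part of these in the difference was not tested. Slc43a1, which encodes the branched-chain amino acid carrier LAT3, was rare, with 76 counts in Rg1 plus LPS, 32 in LPS and 134 in control libraries, and averaged 0.375 ± 0.153, 0.173 ± 0.0799 and 0.723 ± 0.291 CPM. Every LPS library was below every control library, and Slc43a1 fell by 2.03 ± 0.40 (SE, adjusted p = 0.00146) with LPS. It was higher in Rg1 plus LPS than in LPS libraries by 1.09 ± 0.42 (SE, adjusted p = 0.0424), a call that ended without any 1 of Rg1 plus LPS library 3 or 5 or LPS library 2, 3, 4 or 5 (adjusted p between 0.0648 and 0.0977), without the low-count filter, in limma or with only the 2 groups compared (adjusted p between 0.0535 and 0.0681). Against control its log2 fold change was -0.94 ± 0.37 (SE, adjusted p = 0.0543), and it passed without Rg1 plus LPS library 3 or 5 or control library 5 (adjusted p between 0.028 and 0.0454).

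The 17 genes with too few counts held 1 to 125 counts over all 15 libraries. A group's 5 libraries together allow a level of up to 0.0155 CPM in Rg1 plus LPS, 0.0159 CPM in LPS and 0.0163 CPM in control libraries where 0 counts were found, by counting error only. Slc6a12, the betaine and GABA transporter BGT1, had 27 counts in all in Rg1 plus LPS, 74 in LPS and 10 in control libraries. Fitted without the filter on low counts, its log2 fold change with LPS was 2.80 ± 0.75 (SE, adjusted p = 0.0148), and DESeq2 gave an adjusted p of 0.00298. In Rg1 plus LPS against LPS it was -1.57 ± 0.67 (SE, adjusted p = 0.0933). Slc6a14, a broad carrier of neutral and cationic amino acids, had 0 counts in each Rg1 plus LPS library, 2, 1, 3, 1 and 3 counts in the LPS libraries, and 0 counts in each control library. Without the filter it passed in LPS against control (adjusted p = 0.0344) and in Rg1 plus LPS against LPS (adjusted p = 0.0148), where DESeq2 gave no adjusted p. Slc36a2, Slc6a4, the serotonin transporter, and Slc7a13 held 125, 101 and 56 counts in all and did not pass without the filter. The glycine transporter of neurons, Slc6a5, the proline transporter, Slc6a7, the dopamine transporter, Slc6a3, the GABA transporter Slc6a13, the D-serine carrier Slc7a10, the kidney light chain Slc7a9, and Slc7a15, Slc6a16, Slc6a20a, Slc38a5, Slc38a8 and Slc38a11 had at most 33 counts each over the 15 libraries.

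The enzymes and sensors that use what these transporters carry were followed in 9 lists of 169 symbols, whose counts stand beside the shares of all tested genes: 13.8% higher and 9.82% lower with LPS, 22.2% higher and 23.2% lower in Rg1 plus LPS against LPS, and 18.8% higher and 18.1% lower in Rg1 plus LPS against control. Of 20 cytosolic aminoacyl-tRNA synthetases, which load amino acids onto tRNA, 7 (35%) rose with LPS, 12 (60%) were lower in Rg1 plus LPS against LPS, and 2 (10%) were higher and 5 (25%) lower in Rg1 plus LPS against control. Their median log2 fold changes were 0.16 with LPS, and in Rg1 plus LPS libraries -0.24 against LPS and -0.08 against control, where those of all tested genes were -0.003, 0.03 and 0.01. The medians of the other lists are given in the same order of comparisons. Iars, the isoleucine enzyme, averaged 69.3 ± 9.37 CPM in Rg1 plus LPS, 116 ± 12.0 CPM in LPS and 92.4 ± 4.08 CPM in control libraries (SD, n = 5 each). The log2 fold change of Iars was 0.33 ± 0.09 (SE, adjusted p = 0.0107) with LPS and -0.75 ± 0.09 (SE, adjusted p = 4.04e-06) in Rg1 plus LPS against LPS. Eprs, the enzyme for glutamate and proline, had a log2 fold change of -0.49 ± 0.06 (SE, adjusted p = 8.38e-06) in Rg1 plus LPS against LPS. Kars, the lysine enzyme, rose by 0.34 ± 0.07 (SE, adjusted p = 0.00104) with LPS.

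Of 25 tested genes of the ATF4 and amino acid response, 4 (16%) rose and 3 (12%) fell with LPS, 6 (24%) were higher and 9 (36%) lower in Rg1 plus LPS against LPS, and 2 (8%) were higher and 7 (28%) lower in Rg1 plus LPS against control, with medians of -0.09, -0.12 and -0.09. Cebpb and Cebpg, C/EBP factors that pair with ATF4, rose by 0.88 ± 0.09 and 0.43 ± 0.06 on the log2 scale with LPS. Their log2 fold changes in Rg1 plus LPS against LPS were -1.80 ± 0.09 (adjusted p = 2.4e-10) and -1.07 ± 0.06 (adjusted p = 1.44e-09). Mthfd2, a mitochondrial folate enzyme, and Eif2ak4, the kinase GCN2 that senses amino acid shortage, were lower in Rg1 plus LPS than in LPS libraries, with log2 fold changes of -0.87 ± 0.13 (adjusted p = 5.78e-05) and -0.44 ± 0.08 (adjusted p = 0.000212). Chac1, which breaks down glutathione, fell by 0.80 ± 0.15 (SE, adjusted p = 0.00119) with LPS.

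Of 18 tested genes of arginine, nitric oxide and polyamine metabolism, 2 rose and 4 fell with LPS, 4 were higher and 3 lower in Rg1 plus LPS against LPS, and 4 were higher and 2 lower in Rg1 plus LPS against control, with medians of -0.07, 0.06 and -0.03. Nos2, whose enzyme makes nitric oxide from arginine, had 1 count in Rg1 plus LPS library 2 and 0 in the other 4, 1353 to 2364 counts in each LPS library, and 1 count in control libraries 1 and 5 each and 0 in the other 3. Arg2, the mitochondrial arginase, averaged 0.377 ± 0.118, 1.18 ± 0.238 and 0.477 ± 0.182 CPM in Rg1 plus LPS, LPS and control libraries. Arg2 rose by 1.30 ± 0.30 (SE, adjusted p = 0.00404) with LPS, and had a log2 fold change of -1.63 ± 0.30 (SE, adjusted p = 0.000323) in Rg1 plus LPS against LPS. Ass1, which recycles citrulline to arginine, fell by 0.24 ± 0.08 (SE, adjusted p = 0.0304) with LPS and was higher in Rg1 plus LPS than in LPS libraries by 0.31 ± 0.08 (SE, adjusted p = 0.00318).

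Of 26 genes of amino acid sensing at the lysosome and mTORC1, 4 rose and 4 fell with LPS, 9 were higher and 6 lower in Rg1 plus LPS against LPS, and 9 were higher and 5 lower in Rg1 plus LPS against control, with medians of -0.10, 0.10 and 0.01. Lamtor4 and Nprl2, a subunit of the lysosomal Ragulator and a subunit of the GATOR1 inhibitor of mTORC1, were higher in Rg1 plus LPS than in LPS libraries by 0.58 ± 0.05 (adjusted p = 2.18e-07) and 0.67 ± 0.07 (adjusted p = 1.86e-06). Mtor, the kinase itself, rose by 0.26 ± 0.06 (SE, adjusted p = 0.00475) with LPS and was lower in Rg1 plus LPS against LPS, at -0.54 ± 0.06 (SE, adjusted p = 2.23e-06). The glutathione and NRF2 list (17 tested) had 1 lower with LPS, and 2 higher and 2 lower in Rg1 plus LPS against LPS. In this comparison Nfe2l2, the NRF2 gene, had a log2 fold change of -0.61 ± 0.07 (SE, adjusted p = 1.85e-06) and Gpx4, the lipid peroxide reductase, 0.40 ± 0.05 (SE, adjusted p = 1.36e-05). Against control, 2 were higher and 1 lower, and the medians were -0.03, 0.04 and -0.05.

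Of 12 tested genes of glutamine, glutamate and GABA metabolism, 2 fell with LPS, 4 were lower in Rg1 plus LPS against LPS, and 1 was higher and 5 lower in Rg1 plus LPS against control, with medians of -0.20, -0.10 and -0.22. Of 13 genes of glycine, serine and taurine metabolism, 2 fell with LPS, 2 were higher and 2 lower in Rg1 plus LPS against LPS, and 4 were lower in Rg1 plus LPS against control, with medians of -0.09, -0.03 and -0.07. Cdo1, the cysteine dioxygenase of taurine synthesis, fell by 0.36 ± 0.12 (SE, adjusted p = 0.0392) with LPS. Of 10 genes of branched-chain and aromatic amino acid breakdown, 1 rose and 4 fell with LPS, 2 were higher and 2 lower in Rg1 plus LPS against LPS, and 1 was higher in Rg1 plus LPS against control, with medians of -0.13, 0.10 and -0.09. Bcat2, the mitochondrial branched-chain aminotransferase, was higher in Rg1 plus LPS than in LPS libraries by 0.58 ± 0.07 (SE, adjusted p = 2.6e-06). Of 17 tested amino acid transporters outside these families, 3 fell with LPS, 3 were higher and 4 lower in Rg1 plus LPS against LPS, and 2 were higher and 6 lower in Rg1 plus LPS against control, with medians of -0.02, -0.09 and -0.02. Slc16a10, an aromatic amino acid carrier, fell by 0.85 ± 0.28 (SE, adjusted p = 0.0368) with LPS and was also lower in Rg1 plus LPS against LPS, at -1.43 ± 0.30 (SE, adjusted p = 0.000972). Slc15a3, a peptide and histidine carrier of endolysosomes, had a log2 fold change of -3.12 ± 0.54 (SE, adjusted p = 0.000228) in that comparison.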

How the data were processed

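The authors deposited raw read counts and FPKM values per gene for 15 libraries of polyadenylated RNA, made from TRIzol extracts with the VAHTS Universal V6 kit and sequenced by OE Biotech, per the labels. The genome build was GRCm38 (mm10), per the submitters' processing notes; for the aligner, the counting tool, its strand setting and the annotation, nothing is given in the sources used here. The deposited FPKM equals the count per length and library total to within a relative deviation of 7.22e-10, and 37 FPKM rows whose symbols were damaged were left out. FPKM was used to compare levels between genes, to describe levels per group and to derive gene lengths, and no test was run on it. It holds no TMM scaling, so its differences between groups are on another scale than the tests.

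The counts were fitted in edgeR 4.0.16 (R 4.3.3) with 1 quasi-likelihood model of all 15 libraries, group as the only term, TMM scaling (which sets library sizes from the bulk of genes) and robust dispersions. Genes that passed edgeR's filterByExpr (15362 of 25748) were tested two-sided, with Benjamini-Hochberg adjustment over all of them and a threshold of 0.05. The SE is the log2 fold change divided by the square root of F. The procedure was tested on simulated data. Replicates differed by more than sampling noise, so no library was treated as another library sequenced again. This does not tell separate cultures apart from repeat libraries of the same culture. Levels of up to the floor of 3 counts cover counting error only. The counts cover every member, of which 1 tested gene is not reported here by name, nor is 1 gene of the lists; values per library are given for those past the threshold with an absolute log2 fold change of at least 0.58 in LPS against control or Rg1 plus LPS against LPS and a mean of at least 1 CPM, and for a fixed list of best-known members; of each gene list, up to 4 with the smallest adjusted p are named. Alternatives were other scalings and filters, DESeq2 1.42.0, limma 3.58.1 voom, only the groups compared, a replicate block, removal of each library's gene length trend and of single libraries. Members and lists were chosen with earlier results of these data known. Gene positions are from GENCODE for GRCm38 and promoter windows from RefSeq for GRCm38.p6.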

Additional observations from a re-analysis of the deposited data

Results flagged for a closer look

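In 102 sets of 5 libraries (34 genes in 3 groups), 3 sets held a library far from the other 4, where chance gives about 1 in 20. Slc7a6 was at 19.31 CPM in Rg1 plus LPS library 3, below the 24.0 to 25.21 CPM of the other 4, a gap of 0.795 of the group's range. Slc6a17 was at 17.02 CPM in control library 3, below the 20.49 to 21.16 CPM of the other 4 (0.837 of the range). Slc6a2 was at 1.879 CPM in Rg1 plus LPS library 3, above the 0.8686 to 1.159 CPM of the other 4 (0.712 of the range).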

How the results depend on the processing

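Of the calls among the 34 genes, 5 of 10 in LPS against control (Slc7a2, Slc7a6, Slc7a7, Slc43a1 and Slc43a2), 9 of 13 in Rg1 plus LPS against LPS and 6 of 14 in Rg1 plus LPS against control held in every alternative run in which the gene was tested, and no called value changed sign in any alternative. Slc6a8, which did not pass with all libraries (0.03), was lower in Rg1 plus LPS against control without Rg1 plus LPS libraries 1 and 4 (-0.206, adjusted p = 0.0147). Besides the settings named beside each gene, calls in Rg1 plus LPS against control ended for Slc36a1, Slc38a2, Slc6a9, Slc6a19 and Slc38a6 without the low-count filter, for Slc38a2 and Slc6a9 in limma and with only the groups compared, for Slc36a1 with only the groups compared, for Slc36a1 and Slc38a2 with DESeq2 size factors, and for Slc38a1 and Slc38a10 with library size scaling or the gene length trend removed. Against LPS, the Rg1 plus LPS calls ended for Slc43a3 with library size scaling, and for Slc43a3 and Slc7a4 without the filter and with only the groups compared. Calls appeared for Slc38a3 and Slc6a9 in Rg1 plus LPS against LPS with library size scaling, for Slc36a1 and Slc38a2 with LPS with only the groups compared, and for Slc43a1 in Rg1 plus LPS against control in DESeq2. Without LPS libraries 2 and 3, the calls of Slc6a6, Slc7a5 and Slc38a6 with LPS and of Slc43a3 and Slc43a1 in Rg1 plus LPS against LPS ended, and Slc38a1 and Slc38a7 with LPS and Slc38a3, Slc38a4 and Slc6a2 in Rg1 plus LPS against LPS passed. The 3 genes lower with LPS became 1 to 5 with single libraries left out (1 without LPS library 1 or 4 or control library 2, 3 or 4, and 5 without LPS library 3). The 3 higher in Rg1 plus LPS against LPS became 5 with library size scaling only, 1 without the low-count filter, 1 with only the groups compared, and 1 to 4 with single libraries left out (1 without LPS library 2, 4 or 5). The 7 higher in Rg1 plus LPS against control became 2 without the filter, 4 with only the groups compared, 2 without Rg1 plus LPS libraries 1 and 4, and 3 to 6 with single libraries left out; the causes were not tested. With single libraries left out, the 7 higher with LPS became 5 to 7, the 10 lower in Rg1 plus LPS against LPS 9 to 11 and the 7 lower against control 5 to 9, while the calls over all genes were 2847 to 4440, 6290 to 7327 and 4903 to 5836, against 3635, 6976 and 5671. Library size scaling moved the median of all genes to -0.047, 0.14 and 0.078, and the share of higher calls to 45.9%, 65.05% and 63.9%, against 58.5%, 48.9% and 50.9% with TMM. With the replicate number as a block, the genes higher and lower were 6 and 4 with LPS, 4 and 13 in Rg1 plus LPS against LPS and 4 and 7 in Rg1 plus LPS against control. The block added Slc38a1 with LPS and Slc7a11, Slc6a11, Slc6a9, Slc6a17 and Slc38a3 in Rg1 plus LPS against LPS (adjusted p between 0.0174 and 0.0494), and ended the calls of Slc38a6 with LPS, Slc43a1 in Rg1 plus LPS against LPS, and Slc6a19, Slc38a6 and Slc36a1 in Rg1 plus LPS against control (adjusted p between 0.0510 and 0.0788). Same-numbered libraries deviated together at correlations of -0.22 to 0.155, 0.05 to 0.424 and -0.218 to 0.136 in the 3 comparisons. Of the 10 libraries in each, 0, 6 and 2 correlated best with their own number. In Rg1 plus LPS against LPS, 4 of the 5 same-numbered pairs were over 0.1. The labels do not say that the numbers mark a shared culture or day, so the main model held no block. Whether the libraries of that comparison were paired is not settled by these values.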
